A study of Mus musculus with 4 samples.

Results

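Translation initiation, elongation and termination factors are the proteins that load ribosomes onto mRNA, move them along it and release the finished chain. Their genes were chosen by name from a list of cytosine methylation sites: labels beginning Eif1 to Eif6, Eef1 or Eef2, and the labels Etf1, Gspt1, Abce1, Pabpc1 and Pabpc4, with Eif2ak2 left out. This name rule took 50 genes with 3580 sites, 0.706% of the 506952 listed sites. The rule also takes genes that act on translation factors rather than being factors themselves, namely eIF2 kinases, eIF4E-binding proteins and elongation factor modifiers; without them 41 genes and 2743 sites remained, a split made after the values were seen.

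The sites come from mouse NRAS/AE9a leukemic cells, a cultured acute myeloid leukemia line. The samples are 2 libraries of wild-type (WT) cells and 2 of Tet2 KO cells, which lack a dioxygenase that oxidises 5-methylcytosine. All were poly(A) RNA treated with bisulfite. The medium of every group held 50 ng/ml SCF, 10 ng/ml each of IL-3 and IL-6, and the selection drugs G418 (1 mg/ml) and puromycin (2 µg/ml). The labels do not say how the knockout was made, whether it is 1 clone, or whether replicates came from separate cultures. Their spread may thus be technical. Of 12 myeloid marker genes, 10 had a listed site, among them Mpo, Elane and Kit, where 34.2% of all protein-coding genes had one. Of 6 T and NK cell markers 1 had a site (Nkg7), of 4 B cell markers 0, of 3 erythroid markers 0 and of 3 stromal markers 2 (Pdgfrb and Vim). The strand of the markers was not taken into account.

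Bisulfite converts cytosine to uracil, and 5-methylcytosine resists. The methylation level of a site is the fraction of the reads used that still show cytosine. The list is, by its name, of sites unique to the KO. Neither WT values nor values of 1 library stand in it, so KO was not tested against WT, and everything below describes the 2 KO libraries. The lowest level listed was 0.2, and a minimum of 10 covering reads was set here. A gene with 0 sites thus has no upper limit on its methylation. Sites are counts of what was listed and cannot be read as amounts of RNA, and a gene with few reads cannot have many sites.

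Initiation starts when eIF2, carrying the initiator tRNA and GTP, joins the small ribosomal subunit with eIF1, eIF1A, eIF3 and eIF5. The eIF4F complex, made of the cap-binding protein eIF4E, the scaffold eIF4G and the helicase eIF4A, brings this particle to the mRNA, where it scans for the start codon. eEF1A then delivers aminoacyl-tRNAs, eEF2 moves the ribosome, and eRF1 and eRF3 (Etf1 and Gspt1) end the chain. In leukemia and other growing cells these steps are controlled through phosphorylation of eIF2 and through the proteins that hold eIF4E.

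The reference base under a listed site could be read where the site lies between 250 bases before and 50 bases after a RefSeq transcript start, on the strand of that transcript. This holds for 32 of the 3580 sites (0.894%), in 8 genes. Below are 4 stretches of 30 bases, from RefSeq (GRCm38.p6), given 5′ to 3′ on the strand of the gene, each from a gene with more than 1 such site and chosen because no other stretch of that gene held more; a second Eif4enif1 stretch, not printed, held as many, 2 of them called in both replicates. The listed positions are in capitals.
Pabpc4: gaaaagaAaagAagaggaaaaaAaaaagca
Eif3b: agggcggccgAgcCgggtGagAagcAgCgC
Eif4enif1: agCgcggggcccCGGcCtgcgtgcgaggac
Eif4ebp2: cagcgggacgacCgggCgagagcaggcgag

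In Pabpc4, which encodes a cytoplasmic poly(A)-binding protein, the stretch at chr4:123282906-123282935 (plus strand) holds 22 adenines and 1 cytosine. All 3 of its listed positions are adenines in the reference. The position 3 bases into the transcript was covered by 129 reads, with levels of 0.231 and 0.259 in the 2 KO replicates (mean 0.245, SD 0.020, n = 2). The position 7 bases in had 118 covering reads and levels of 0.222 and 0.23 (mean 0.226, SD 0.0057, n = 2). Both positions were low in both replicates, with close values that lie just above the listing minimum of 0.2. Neither is a cytosine on the strand that the list gives. At the third position 13 of 60 reads used showed cytosine (0.217, Wilson 95% interval 0.131 to 0.336).

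Eif3b encodes a scaffold subunit of eIF3. Its stretch at chr5:140419325-140419354 (plus strand) holds 7 listed sites: 3 at adenines, 3 at cytosines and 1 at a guanine. The adenine at 140419335 had levels of 0.817 and 0.833 in the 2 replicates (mean 0.825, SD 0.011, n = 2, 13 reads). The cytosine at 140419338 had 0.6 and 0.7 (mean 0.65, SD 0.071, n = 2, 17 reads). The adenine and the cytosine were thus both called in both replicates, and the adenine had the higher level. The cytosine at 140419354 was unconverted in 10 of 10 reads used (Wilson interval 0.722 to 1).

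Eif4enif1 encodes 4E-T, a protein that binds eIF4E and carries it into the nucleus and to P-bodies. In its stretch at chr11:3202806-3202835 (plus strand), at positions -189 to -160 from this transcript's start and inside the gene's span, 5 sites were listed, 3 at cytosines and 2 at guanines. The run of 1 cytosine and 2 guanines had levels of 0.455, 0.455 and 0.636, each on 11 reads used and in 1 replicate. Eif4ebp2 encodes an eIF4E-binding repressor. Its stretch at chr10:61452648-61452677 (minus strand) has 2 listed sites, both cytosines before a guanine, with 6 of 17 reads (0.353, Wilson interval 0.173 to 0.587) and 3 of 14 reads (0.214, 0.0757 to 0.476) unconverted.

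Of all 32 sites, 19 were at cytosine (59.4%, exact 95% interval 40.6 to 76.3). Over the 26 plus-strand sites with a known base, 14 were at cytosine (53.8%, exact 95% interval 33.4 to 73.4), 7 at adenine, 5 at guanine and 0 at thymine. Over the 6 minus-strand sites, 5 were at cytosine and 1 at guanine. The same reading over all 3471 listed sites in such windows gave 53.8% at cytosine, with 1779 of 3375 on the plus strand (52.7%) and 87 of 96 on the minus strand (90.6%). Thymine made up 18.99% of the bases of the plus-strand windows and 0 of the listed positions. Moving every position by 1 base in either direction brought 602 and 637 sites onto thymine, against 0 at the listed positions. The share at cytosine was then 29.9% and 30.6%, against 53.8%. Larger shifts and misplacement of single positions were not tested. The intervals for translation factor sites, over both strands and over the plus strand, include the shares of the whole list, and no test was made.

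**Figure D1:**
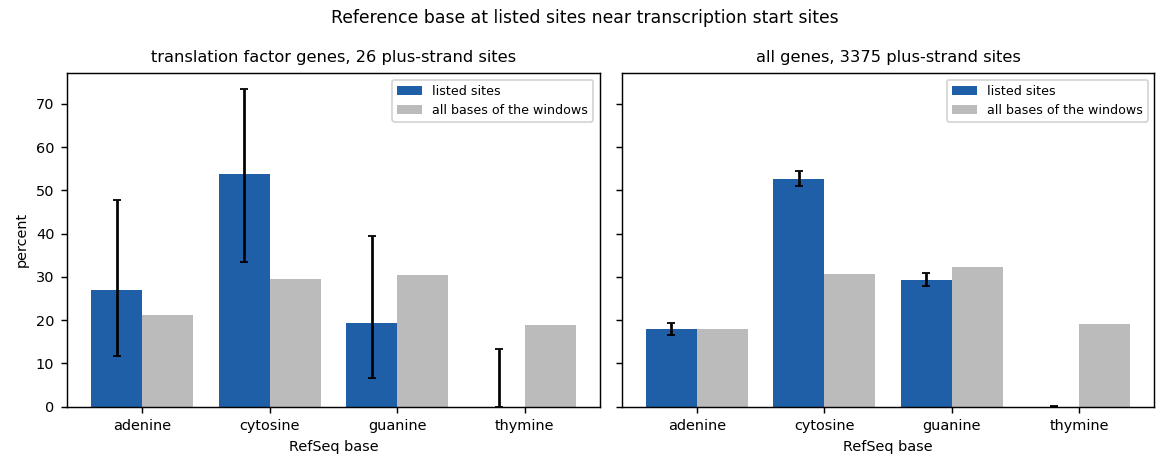
Share of plus-strand listed sites (blue, with exact 95% intervals) by RefSeq base, beside the share of each base in the windows that hold them (grey), for translation factor genes (left, 26 sites) and all genes (right, 3375 sites). Cytosine is the most frequent base at listed sites in both panels, adenine and guanine make up all of the rest, and thymine is at 0.

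What a read showing cytosine at a reference adenine or guanine stands for was not tested. Over all plus-strand windows, sites at adenine had a median level of 0.615, at guanine 0.690 and at cytosine 0.706. The level used a median of 85.7% of the covering reads at adenine and at guanine and 64.3% at cytosine. Of the adenine sites 10.9% were called in both replicates, of the guanine sites 8.78% and of the cytosine sites 18.2%. The base is not known for the other sites of translation factor genes, so the word site below means a listed position. Reads called unconverted or kept below are reads that showed cytosine there, whatever the reference base.

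RefSeq holds 75 protein-coding genes that the rule takes. A site was listed for 50 of them (66.7%, exact interval 54.8 to 77.1), against 34.2% of 21900 protein-coding genes. The 21900 were counted by all their labels, older names included, and the 75 only by labels that the rule takes. Eef1aknmt, with 4 sites under its older label Mettl13, thus counts as without a site among the 75. Eif3j2 is counted by its label alone, and 49 genes (65.3%) had a site inside their own span. For 57 genes the strand is given by the RefSeq start-site table. On the plus strand 30 of 34 such genes had a site (background 51.4%), and on the minus strand 7 of 23 (background 18.5%). Where any site was listed, the median number was 86.5 per plus-strand gene and 2 per minus-strand gene. Of the 3580 sites in all 50 genes 98.9% were on the plus strand, and of the whole list 99.1%. Over all protein-coding genes with a site the medians were 71 and 1.

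**Figure D2:**
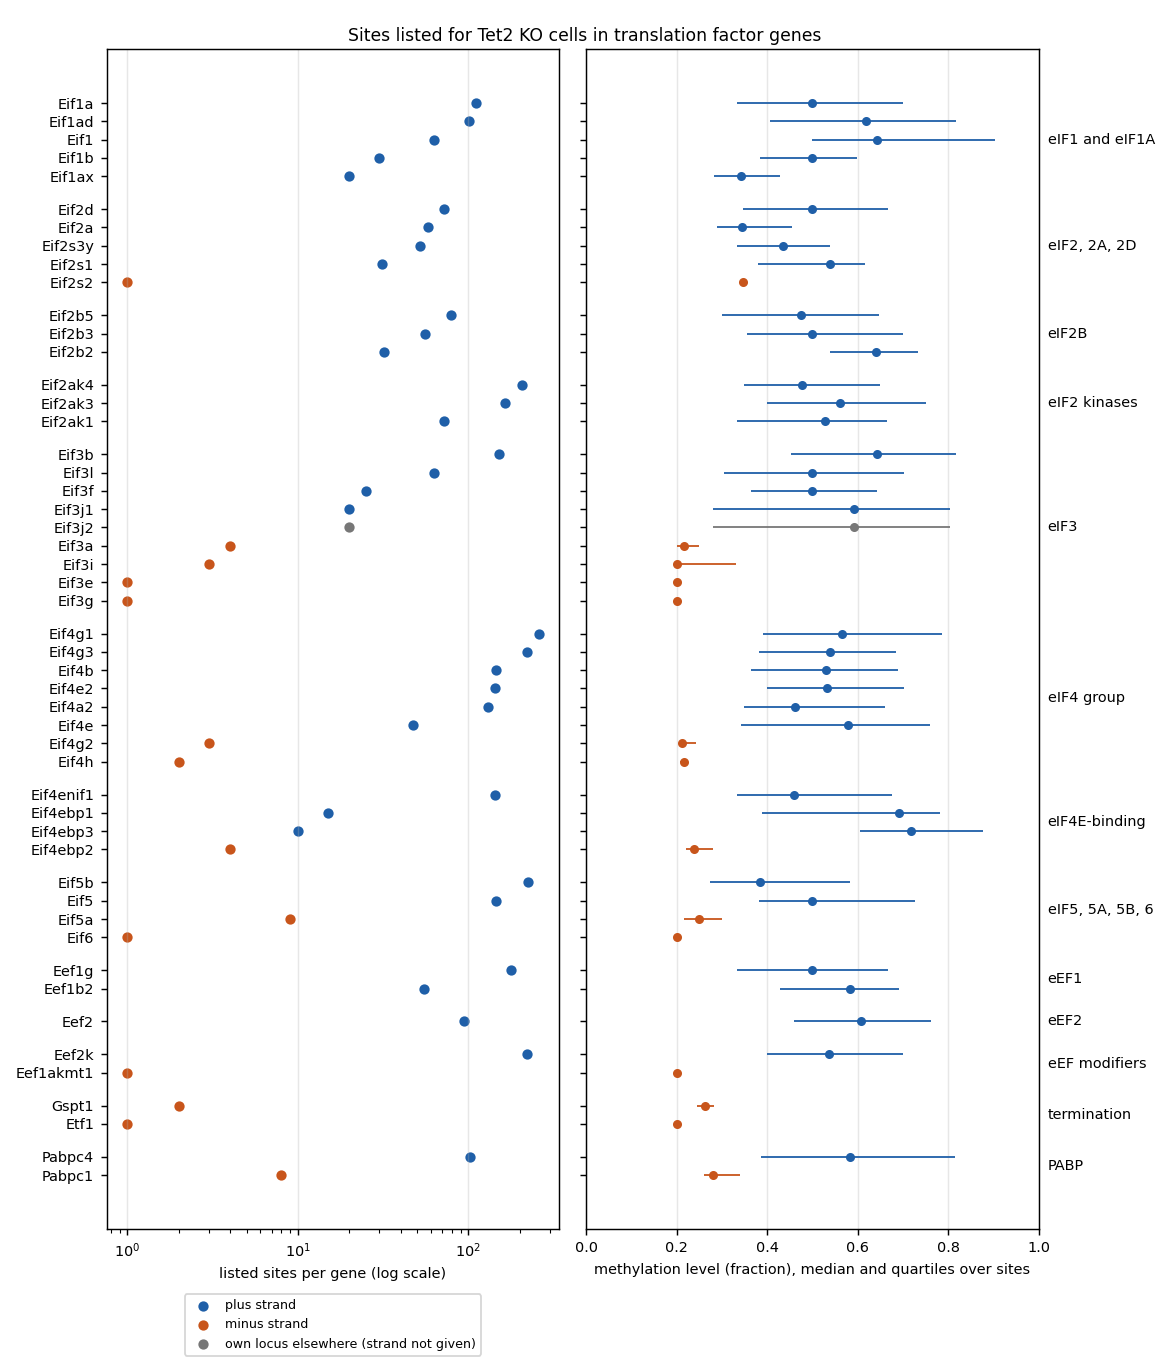
Listed sites per gene (left, log scale) and methylation level (right, median as a point and quartiles over sites as a line) for the 50 translation factor genes with sites, grouped by complex. Plus-strand genes (blue) have 10 to 258 sites, minus-strand genes (orange) 1 to 9 sites, at medians below those of the plus-strand genes except that Eif2s2 (1 site) lies just above Eif2a and Eif1ax, and Eif3j2 (grey) shows the sites it shares by label with Eif3j1.

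The factors eIF1 and eIF1A keep the scanning ribosome open until the start codon is met. The 5 genes grouped under these names, Eif1ad among them by name only, all had sites and all lie on the plus strand. Eif1a led with 111 sites (median level 0.5), and Eif1ad, named for its eIF1A-like domain, had 101 (0.618). Eif1 is a short gene on chromosome 11 (100319949 to 100322099). Its 63 sites came to 29.3 per kb of gene span, the densest of all these genes, and its median level was 0.643, with 11 sites unconverted in every read used. Its paralog Eif1b had 30 sites at a median of 0.5. Eif1ax, on the X chromosome, had 20 sites at a median level of 0.342 and the deepest reads of the group, a median of 51.5 per site. Its highest level was 0.622, whereas the other 4 genes each reached 1. Reads from such close copies may be shared between them, and how the authors placed them was not stated.

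Among the subunits of eIF2, Eif2s1, which encodes the alpha subunit that is phosphorylated under stress, had 31 sites with a median level of 0.538. One of them, at 78884863 on chromosome 12, was among the most deeply read of all, with 58 unconverted reads of 101 used (0.574, Wilson interval 0.477 to 0.666). The minus-strand Eif2s2, for the beta subunit, had a single site at 154872122 on chromosome 2, with levels of 0.263 and 0.429 in the 2 replicates (mean 0.346, SD 0.117, n = 2). For the gamma subunit, the Y-linked Eif2s3y had 52 sites (median 0.436) and the X-linked, minus-strand Eif2s3x had 0. These copies are alike, and how reads were divided between them was not tested. Eif2a and Eif2d encode factors that can bring initiator tRNA to the ribosome by other routes. Eif2a had 58 sites at a median level of 0.345, with quartiles of 0.288 and 0.455 and no site above 0.8. Eif2d had 72 sites at a median of 0.5.

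eIF2B exchanges GDP for GTP on eIF2. Its catalytic subunit gene Eif2b5 had 79 sites (median level 0.474), Eif2b3 56 (0.5) and Eif2b2 32 (0.640). The minus-strand genes Eif2b1 and Eif2b4 had 0. Kinases that phosphorylate eIF2 alpha block this exchange. The 3 that the rule takes were on the plus strand, and Eif2ak2, which the rule leaves out, was not described. Eif2ak4 (GCN2, which responds to amino acid shortage) had 206 sites, Eif2ak3 (PERK, which responds to unfolded protein in the endoplasmic reticulum) had 163 and Eif2ak1 (HRI, which responds to heme) had 72. Their median levels were 0.476, 0.562 and 0.528. One Eif2ak4 site, at 118454846 on chromosome 2, was among the highest with at least 20 reads used: its levels were 0.924 and 1 in the 2 replicates (mean 0.962, SD 0.054, n = 2). In Eif2ak3 the site at 70844905 on chromosome 6, in the first 10% of the gene span, kept cytosine in 20 of 21 reads (0.952, Wilson interval 0.773 to 0.992).

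eIF3 is the largest initiation factor, a platform on the small subunit. Of its 14 genes, 9 had sites by label and 8 inside their own span, in uneven numbers. Eif3b had 151, Eif3l 63 and Eif3f 25, all on the plus strand, at median levels of 0.643, 0.5 and 0.5. The minus-strand genes were Eif3a with 4 sites, Eif3i with 3, and Eif3e and Eif3g with 1 each. Eif3c, Eif3d, Eif3h, Eif3k and Eif3m had 0, and the strand of Eif3h was not given in the table used. The deepest site called in both replicates was in Eif3b, at 140427118 on chromosome 5. It was covered by 161 reads, with levels of 0.332 and 0.436 (mean 0.384, SD 0.074, n = 2). In Eif3b 36 of the 151 sites lay in the first 10% of the span, and 13 sites were unconverted in every read used. Eif3j1 and Eif3j2 share the same 20 sites by label. All lie on chromosome 2 inside Eif3j1 (122028580 to 122053632), whereas RefSeq places Eif3j2 on chromosome 18 (43475418 to 43477836), so they are described as sites of Eif3j1.

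The eIF4 genes carried the most sites of any complex, 952 in 8 of 12 genes, at a median level of 0.533. Eif4g1, the main scaffold of the cap-binding complex (chromosome 16, 20672720 to 20692883), had 258 sites, the highest number among translation factors. Of these, 45 were called in both replicates, the median level was 0.565 and the median coverage 20 reads. At 20672844, 22 of 22 reads kept cytosine (Wilson interval 0.851 to 1). Farther along the gene, the deeply covered site at 20682778 kept 67 of 172 reads (0.390, interval 0.320 to 0.464). Nearby, the site at 20682800 had 0.345 and 0.383 in the 2 replicates (mean 0.364, SD 0.027, n = 2, 154 reads). The site at 20672844 was picked for its high level and that at 20682778 for its coverage. Each of them was called in 1 replicate, and whether their levels differ was not tested.

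Eif4g3, a second scaffold gene, had 221 sites (median level 0.538), 33 of them in both replicates. Its deepest replicated site, at 138183302 on chromosome 4, had levels of 0.210 and 0.258 (mean 0.234, SD 0.034, n = 2). Eif4b, which encodes a cofactor of the helicase, had 146 sites (median 0.529). Its site at 102095603 on chromosome 15 had levels of 0.5 and 0.524 (mean 0.512, SD 0.017, n = 2) at 94 reads, so a level near the middle of the scale was repeated closely. Eif4e2, a cap-binding relative of eIF4E, had 144 sites (0.533), of which 68 lay in the last 10% of the span. Eif4a2, a helicase gene, had 131 (0.462), at 19.7 per kb of span. Eif4e itself had 47 sites at a median of 0.578, with 26 in the last 10%. On the minus strand, Eif4g2, whose product supports cap-independent initiation, had 3 sites and Eif4h, another helicase cofactor, had 2. The most covered Eif4g2 site called in both replicates, at 111076740 on chromosome 7, was at 0.2 in each (SD 0, n = 2, 97 reads). All 5 had levels of 0.273 or less. Median coverage was 81 reads in Eif4g2 and 53.5 in Eif4h, but the level used a median of only 19 and 11.5 reads. Eif4a1 and Eif4a3 on the minus strand had 0, as did Eif4e3 and Eif4e1b.

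Proteins that hold eIF4E away from eIF4G were uneven too. Eif4enif1 had 144 sites (median level 0.458), Eif4ebp1 had 15 (0.692) and Eif4ebp3 had 10 (0.718). The last 2 of these medians were the highest among all these genes, but rest on few sites, and Eif4ebp1 had 0 sites called in both replicates. Eif4ebp2 on the minus strand had 4 sites, all in the first 10% of its span. The deepest of them, at 61452567 on chromosome 10, kept 13 of 51 reads (0.255, Wilson interval 0.155 to 0.389).

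Eif5b, which encodes the GTPase that joins the ribosomal subunits, had 223 sites at a median of 0.385, the lowest among the 10 genes with the most sites, with quartiles of 0.274 and 0.583, and 0 sites were unconverted in every read. Of its sites, 85.2% had another listed site within 10 nt, against 71.1% over all translation factor sites and 70.3% over the whole list. One stretch of under 100 nt, from 38021602 to 38021699 on chromosome 1, held 19 sites with a median level of 0.294 at a median of 35 reads. Eif5, the GTPase-activating partner of eIF2, had 145 sites at a median of 0.5, and 14 were unconverted in every read. Its highest deep site, at 111538572 on chromosome 12, kept 33 of 34 reads (0.971, interval 0.851 to 0.995). The minus-strand Eif5a, which encodes the hypusine-bearing elongation factor, had 9 sites with levels from 0.2 to 0.412. Its deepest, at 69917615 on chromosome 11, kept 10 of 46 reads used while 153 reads covered it (0.217, interval 0.123 to 0.356). Eif6, which keeps the ribosomal subunits apart, had 1 site and Eif5a2 had 0.

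Among elongation factors, Eef2, the translocase gene on chromosome 10 (81176631 to 81182509), had 94 sites with a median level of 0.608. It held the most deeply covered site of all these genes, at 81179604, where 95 of 264 reads used were unconverted (0.360, Wilson interval 0.304 to 0.419). Another Eef2 site, at 81179032, kept cytosine in 20 of 20 reads (0.839 to 1). The first of these 2 sites was picked for its coverage and the second for its high level. Both were called in 1 replicate, and a difference between them was not tested. Eef1g and Eef1b2, which encode subunits of the factor that reloads eEF1A with GTP, had 177 and 55 sites at medians of 0.5 and 0.582. Of the Eef1b2 sites, 15 lay between 63176972 and 63177025 on chromosome 1 near the 5′ end, with a median level of 0.692 and 4 called in both replicates. Eef1a1, the gene of the abundant eEF1A, had 0 sites, as did Eef1a2, Eef1e1 and Eef1d. The first 3 are on the minus strand.

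Eef2k, the kinase that inactivates eEF2, had 222 sites (median level 0.537), of which 112 (50.5%) lay in the last 10% of its span. A stretch from 120905977 to 120906063 on chromosome 7 held 23 of them, the most within 100 nt of any of these genes, at a median level of 0.538. Its most covered replicated site, at 120892046, was at 0.2 in both replicates (SD 0, n = 2, 97 reads), the lowest level the list admits. Eef1akmt1, a lysine methyltransferase of eEF1A, had 1 site. Eef1akmt2, Eef1akmt3, Eef1akmt4 and Eef2kmt had 0, and Eef1aknmt had 0 under that name but 4 under its older label Mettl13, which the rule does not take.

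Termination genes were thinly listed. Etf1 had 1 site (2 of 10 reads) and Gspt1 had 2 (0.227 and 0.3), and Abce1, whose product splits the ribosome afterwards, had 0; all 3 are on the minus strand. The poly(A)-binding protein genes differed in number: Pabpc4 on the plus strand had 102 sites at a median level of 0.583, and Pabpc1 on the minus strand had 8 at a median of 0.280. Of the Pabpc1 sites, 7 lay between 36608620 and 36608637 on chromosome 15, near the 5′ end. The one called in both replicates, at 36608637, had levels of 0.235 and 0.291 (mean 0.263, SD 0.040, n = 2).

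Across minus-strand translation factors, 41 sites in 14 genes had a median level of 0.231, the highest was 0.545, at 36608630 in Pabpc1 (6 of 11 reads, Wilson interval 0.280 to 0.787), and 4 were called in both replicates. Over the minus strand of the whole list the median was also 0.231. Minus-strand sites were covered by more reads than plus-strand sites (median 29 against 19), and the level used a median of 60% of them against 81.6%. The part of strand and of the share of reads used in these levels was not tested.

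Along the gene span, a smaller share of translation factor sites lay near the 3′ end than of all sites. Of 3580 sites placed inside the RefSeq span of their gene, 18.3% were in its last 10% (exact interval 17.0 to 19.6), against 28.8% over all genes. Without the kinases, binding proteins and modifiers the share was 14.8%. The first 10% held 10.1% (9.14 to 11.1) against 8.35%. Sites in the first 10% had a median level of 0.71, and in the other 10% steps medians ran from 0.455 to 0.529. Over all genes the first 10% was also the highest, at 0.631. Genes differed widely: Eif4e had 55.3%, Eif2s1 51.6% and Eef2k 50.5% of their sites in the last 10%, whereas Eif4a2, Eif2d, Eef1b2 and Eif2s3y, each with over 50 sites, had 0. Sites within a gene share its reads, so the interval, which treats them as independent, is too narrow. Position in exons, introns and untranslated regions was not analysed here.

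**Figure D3:**
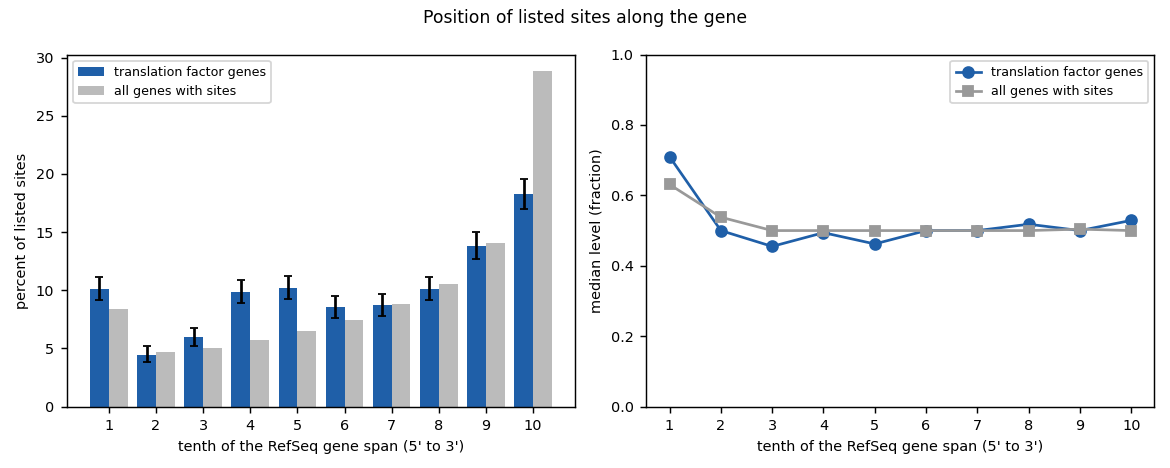
Left, percent of listed sites in each 10% step of the RefSeq gene span, 5′ to 3′, for translation factor genes (blue, exact 95% intervals) and all genes (grey); right, the median methylation level in each step. The last 10% holds 18.3% of translation factor sites against 28.8% over all genes, and the first 10% has the highest median level in both.

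A few sites lie inside small nucleolar RNAs encoded within these genes. Eef1b2 shares 7 sites with Snora41 (chromosome 1, 63179023 to 63179135), with levels from 0.273 to 0.727. Eif4a2 shares 1 site each with Snord2 (14 of 41 reads, 0.341, Wilson interval 0.216 to 0.495) and Snora81 (5 of 10 reads). All 9 were called in 1 replicate, and whether their reads came from the host transcript or the small RNA cannot be told apart.

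Calls in both KO replicates were listed for 566 of the 3580 sites (15.8%, exact interval 14.6 to 17.0), against 14.2% over the whole list. By complex the share ran from 12.1% in eEF1 to 18.2% in the eIF1 and eIF1A genes, leaving out the termination genes with 0 of 3 sites. The exact intervals of these extremes were 8.17 to 17.0 and 14.1 to 22.8, and they overlap. Because sites within a gene share its reads, these intervals and that of the 15.8%, which treat sites as independent, are too narrow. Whether 15.8% differs from 14.2% was not tested. At the 566 shared sites, the 2 replicates differed in level by a median of 0.091, 10% differed by more than 0.261, and the largest difference was 0.582. Only sites that passed in both replicates enter here. Shared sites had a median level of 0.522 and single calls 0.5, against 0.525 and 0.529 over the whole list. In the whole list the replicates differed by a median of 0.1, and 10% differed by more than 0.268.

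Level and replication moved with coverage. In sites covered by 10 to 19 reads the median level was 0.545 and 12.04% were called in both replicates. In those with 50 or more reads the median was 0.385 and 21.6% were called in both. The whole list went from 0.545 to 0.432 and from 11.2% to 17.7%. A level of 1 was listed for 153 sites (4.27%), against 3.95% of the whole list, and 803 sites had at least 20 reads used. With 27 of 27 reads, the deepest site with a level of 1 was in Eif1ad, at 5367275 on chromosome 19 (Wilson interval 0.875 to 1). These intervals cover counting error only, treat each read as a separate molecule and take no account of sites having been picked for high values.

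**Figure D4:**
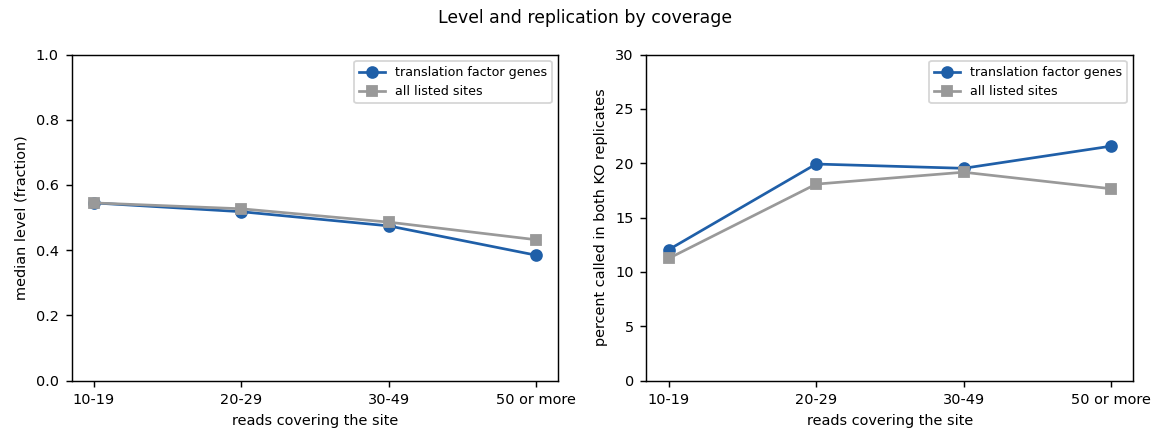
Median methylation level (left) and percent of sites called in both KO replicates (right) by the number of reads covering the site, for translation factor genes (blue) and all listed sites (grey). From 10 to 19 reads to 50 or more, the level of translation factor sites went from 0.545 to 0.385 and the share in both replicates from 12.04% to 21.6%.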

How the data were processed

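Poly(A) RNA of 4 libraries was bisulfite-converted and sequenced. Per the submitters' processing notes the build is mm10; not given in the sources used here: aligner, caller. Deposited was a table with one line per site. Its covering and unconverted reads are, per the file headers, averages over the KO replicates with a call, which the authors rounded to whole numbers (a score here). The methylation level is the authors' fraction of unconverted over used reads. Its deposited SD was read as a population SD, since replicate levels then gather at the listing minimum and at 1, and converted to a sample SD; the 2 replicate levels are the mean plus and minus the deposited SD. The authors' combined p-values of the methylation state are deposited too, at most 0.000114 in these genes. Reads used were computed as unconverted reads over the level. Library totals were not used here, and there were 0 columns of other series.

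Labels were split at commas, and all 50 matched RefSeq (GRCm38.p6). Strand came from the RefSeq start-site table or, where it has no entry, from the sites inside the gene. Intervals at 95% are Wilson for levels and Clopper-Pearson for shares. No test was made, since no WT or single-library values were used. Named were the 10 genes with the most sites, the 6 highest sites at 20 or more reads used and the 6 most covered replicated sites, 1 per gene, and every minus-strand gene; other sites and stretches printed were chosen after their values were seen, and 1 stretch that the same choice gave is not reported here. The genes and lists were chosen with earlier results of these data known. Functions were tested on simulated data. Alternatives were coverage minimums (20, 30 and 50 reads), 20 or more reads used, sites in both replicates, sites with no other within 10 nt, sites with 1 label, p at most 1e-06 and, added after the data were examined, plus-strand genes and genes without kinases, binding proteins and modifiers. A deposited column gives whether 1 or both KO replicates had a call. Python 3.11.15, pandas 2.3.3 and SciPy 1.17.1 were used.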

Additional observations from a re-analysis of the deposited data

How the results depend on the processing

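The number of genes with a site, 50, ran from 36 to 48 under the alternatives. The number of sites, 3580, moved to 1678, 850 and 292 at 20, 30 and 50 covering reads, to 803 with 20 or more reads used, to 566 called in both replicates and to 1036 with no other site within 10 nt. The median level of 0.5 moved to 0.434 and 0.385 at 30 and 50 covering reads and to 0.424 with 20 or more reads used. The share called in both replicates moved from 15.8% to 20.1%, 20.2% and 21.6% at 20, 30 and 50 covering reads, to 13.3% for sites with no other within 10 nt and to 17.5% for p at most 1e-06. The share in the last 10% moved from 18.3% to 15.2% and 15.4% at 30 and 50 covering reads, to 14.9% with 20 or more reads used, to 20.3% for sites in both replicates and to 14.8% without kinases, binding proteins and modifiers. Stricter rules keep fewer sites by construction; the cause of the other shifts was not tested. No paired analysis was possible because neither WT values nor values per library stand in the table, and leaving out a replicate was not possible for the same reason.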

Other observations

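The 3 related gene lists, chosen with earlier results of these data known, were described in the same way. Of 10 mitochondrial translation factor genes 8 had a site, with 563 sites at a median level of 0.5 and 16.9% called in both replicates; over all protein-coding genes 34.2% had a site, and over the whole list 14.2% of sites were called in both. Mtif2, the mitochondrial initiation factor gene, led with 131. Of 21 other translation regulators and rescue factors 18 had a site, with 1715 sites at a median of 0.522 and 15.6% in both replicates. Gcn1, whose product activates GCN2 on stalled ribosomes, led with 344 sites at a median of 0.6, 69 of them in both replicates, and Larp1, which binds mRNAs that begin with a pyrimidine tract, had 258 (0.556). Of 22 genes of cytosolic aminoacyl-tRNA synthetases and their scaffold proteins 14 had a site, with 1069 sites at a median of 0.5 and 13.6% in both replicates; Iars had 210, Eprs 175 and Vars 151.

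Strand marked these lists as well. All 7 plus-strand mitochondrial factor genes, all 14 plus-strand regulators and all 8 plus-strand synthetase genes had sites, against 1 of 2, 4 of 6 and 6 of 11 on the minus strand, where the highest number per gene was 3. Over all protein-coding genes, with strand taken in the same way, 56.3% of plus-strand and 21.97% of minus-strand genes had a site. In each list over 99% of the sites were on the plus strand (99.5%, 99.7% and 99.1%). Genes for which the start-site table has no entry enter by the strand of their sites, so these counts favour genes with sites.

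Among cytosines at listed plus-strand sites near starts of translation factor transcripts, 9 of 14 stood before a guanine, where 30.6% of all cytosines of these windows do; over all genes the shares were 29.3% and 26.4%. The 9 lie in 2 genes, so they are few and not independent. Among the 14, the Eif3b cytosine at 140419354 ends its window, so the base after it was not read.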
